A study of Mus musculus with 37 samples.

Results

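The miR-181 family was followed in whole blood of mice sampled at 4 ages. Its members were the 6 mature microRNAs mmu-miR-181a-5p, mmu-miR-181b-5p, mmu-miR-181c-5p, mmu-miR-181d-5p, mmu-miR-181a-1-3p and mmu-miR-181c-3p (mmu- for mouse, left out below), taken by name, with no threshold on their values, from a table of 1915 mature microRNAs. The study had itself picked miR-181a-5p, from these libraries among other data, as one microRNA of a blood signature of cognitive function. Its tests below are therefore not independent evidence for it, and the other 5 members place it beside its paralogs and its 3p arms. A fall of miR-181a-5p described below ran opposite in direction to the rise that the study reports for the signature as a whole.

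Small RNA from the blood of male C57BL/6 mice was sequenced in 37 libraries. Mice aged 12 months gave 9 of them, mice aged 13.5 months 12, mice aged 15 months 5 and mice aged 16.5 months 11. All animals belonged to the group that learned the water maze, a spatial memory task, and the labels name no transgene or agent. The methods describe the animals as wild-type. By the study's methods, blood came from the retro-orbital sinus under isoflurane, at 12 months before any behavioural test and at the later ages a day after the probe tests. The mice were bled repeatedly and housed singly, but the labels tie no library to an animal. The libraries of an age were treated as replicates, and the p-values would be affected where libraries of different ages share a mouse. Age, the number of training rounds and the time of collection rise together in these libraries and cannot be told apart. The study also bled untrained ageing mice to control for training, but their data are not among these libraries.

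MicroRNAs of one family share the seed, the stretch near the 5′ end that pairs with target mRNAs. The miR-181 family is conserved among vertebrates, and miR-181a is known for its high level in developing lymphocytes, where it tunes the sensitivity of the T cell receptor. Each hairpin precursor gives a 5p and a 3p arm. In this family the 5p arm is the usual guide strand, which is kept in the silencing complex, while the 3p arm is mostly degraded.

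The mature sequences are shown because the members differ by few bases, which bears on how reads were assigned to them. Capitals mark the seed, bases 2 to 8 from the 5′ end, and the sequences are those of RefSeq on GRCm38.p6, where 6 of 6 members were matched.
miR-181a-5p: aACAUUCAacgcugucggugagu
miR-181b-5p: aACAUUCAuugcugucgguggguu
miR-181c-5p: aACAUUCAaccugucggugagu
miR-181d-5p: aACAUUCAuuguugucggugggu
miR-181a-1-3p: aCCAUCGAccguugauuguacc
miR-181c-3p: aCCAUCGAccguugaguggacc
The seed ACAUUCA was held by 4 of the 1679 mature mouse microRNAs of the RefSeq set, and these were the 4 5p members. Both 3p members share the seed CCAUCGA, which no other microRNA of the set held. Counted from the 5′ end of miR-181a-5p, miR-181b-5p differs by A9U, C10U and A21G and is 1 base longer. The differences of miR-181d-5p from miR-181a-5p are A9U, C10U, C12U and A21G. Removing the G at position 11 of miR-181a-5p gives miR-181c-5p. The 3p members share their first 15 bases and differ by U16G and U19G. No stretch of 18 bases, the shortest read kept by the authors, was common to any pair of members.

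The precursors lie in 3 clusters of 2 hairpins each. Mature miR-181a-5p and miR-181b-5p each come from 2 loci, so their reads cannot be divided between the loci. On chromosome 1, miR-181a-5p lies at chr1:137966468-137966490 and miR-181b-5p at chr1:137966650-137966673, both on the plus strand, inside the noncoding gene Gm4258 of the same strand and opposite the lincRNA Gm26936. The miR-181b-5p locus there also falls in an exon of the lincRNA A430106G13Rik. The second copies lie at chr2:38852741-38852763 for miR-181a-5p and chr2:38853845-38853868 for miR-181b-5p, within the span of Nr6a1 on its opposite strand. On the minus strand of chromosome 8, miR-181c-5p lies at chr8:84178924-84178945 and miR-181d-5p at chr8:84178759-84178781, in an intron of Nanos3. Of the 3p members, miR-181a-1-3p belongs to the chromosome 1 hairpin at chr1:137966508-137966529 and miR-181c-3p to the chromosome 8 hairpin at chr8:84178885-84178906. The 3p arm therefore separates the loci of miR-181a where the 5p arm does not.

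Libraries held 2619533 to 20268095 reads, but 88.6% to 97.0% of each were miR-486, an abundant red cell microRNA, which left 140292 to 1131713 reads for all others. In 4 libraries, 1 at each age, fewer than 200000 reads remained (12 months replicate 3, 13.5 months replicate 1, 15 months replicate 1 and 16.5 months replicate 10). These shallow libraries hold the extreme values of several members, and calls of the members that change without them are given beside the result. A microRNA was tested when it had more than 1 read in at least 50% of the libraries, which 323 of 1915 and 6 of 6 members did. Levels are CPM, the reads of a microRNA for every 1000000 reads of its library. They are given after TMM scaling, a correction for differences in library composition. At the 4 ages miR-486a-5p alone had a mean of 398686 to 624123 CPM, less than the share of all miR-486, though that share is of unscaled reads. Whether reads were counted under more than 1 miR-486 name was not tested. The library totals and the miR-486 share above would then be too high.

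Of the family's reads summed over all libraries, miR-181a-5p held 64.3%, miR-181c-5p 17.4%, miR-181b-5p 10.4% and miR-181d-5p 6.39%. The 3p arms were rare, with 348 reads of miR-181a-1-3p and 588 of miR-181c-3p in total, against 43576 of miR-181a-5p. Within a library, miR-181a-5p exceeded miR-181b-5p and miR-181d-5p in 37 of 37 libraries and miR-181c-5p in 36 of 37. Below it the order was less fixed, since miR-181c-5p exceeded miR-181b-5p in 27 of 37 libraries, while miR-181b-5p exceeded miR-181d-5p in 36 of 37. Every 5p member exceeded both 3p members in 37 of 37 libraries. miR-181c-3p was above miR-181a-1-3p in 29 of 37, although its 5p partner was the less abundant one. The remaining 3p arms of the precursors had too few reads to be tested. They were miR-181d-3p with 30 reads over all libraries, miR-181b-1-3p with 12, miR-181b-2-3p with 4 and miR-181a-2-3p with 0. The 0 reads allow a miR-181a-2-3p level of up to 0.156 CPM of the reads outside miR-486 over all libraries, for counting error only.

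**Figure D1:**
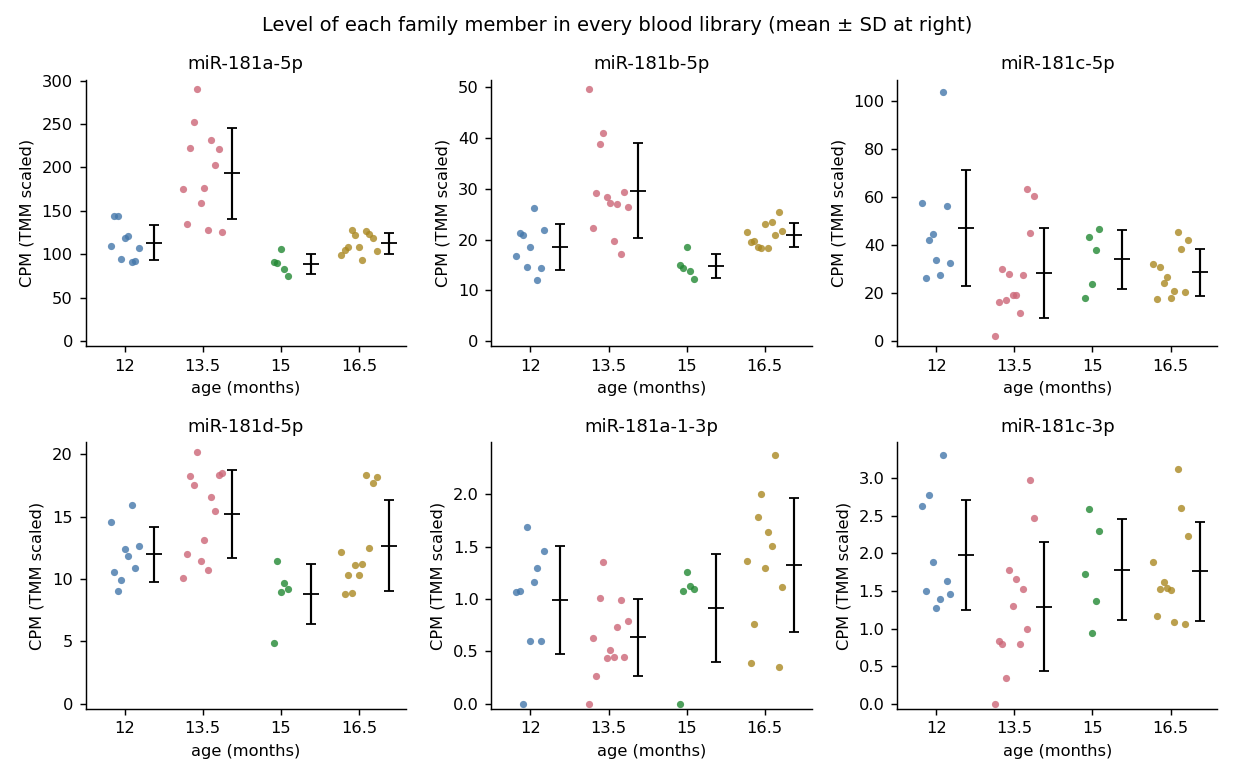
Level of each member in CPM (vertical axes, linear, a separate scale per panel) in every library at each age in months, with the mean ± SD drawn to the right of the points. miR-181a-5p and miR-181b-5p stand highest at 13.5 months, miR-181c-5p has a single high library at 12 months (104 CPM) and the 3p arms stay below 4 CPM.

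The first question was whether blood levels of the members changed over the 4 ages. Tested over all 4 ages with edgeR's quasi-likelihood F-test and Benjamini-Hochberg adjustment over the 323 microRNAs, 3 of 6 members passed the threshold of 0.05, beside 32.5% of all microRNAs tested. They were miR-181a-5p (adjusted p = 8.6e-07), miR-181b-5p (adjusted p = 2.4e-04) and miR-181d-5p (adjusted p = 0.027). The adjusted p was 0.079 for miR-181a-1-3p, 0.17 for miR-181c-5p and 0.47 for miR-181c-3p. For miR-181a-1-3p it fell under the threshold with DESeq2 (0.012), with 1 or 2 RUVs factors (0.032 and 0.030), with scaling by reads outside miR-486 (0.039), with the most favourable TMM reference library (0.026), without the 4 shallow libraries (0.039), and without replicate 5 of 13.5 months or replicate 2 of 16.5 months (0.039 each). miR-181c-5p passed with 2 RUVs factors (0.020). The call of miR-181d-5p is the least firm of the 3. It was lost on leaving out any of 11 libraries, which were replicates 1 and 4 of 12 months, 3, 5, 10, 11 and 12 of 13.5 months, 1 and 3 of 15 months, and 1 and 8 of 16.5 months, with adjusted p from 0.050 to 0.092. It was lost as well with total count scaling (0.086), with scaling by reads outside miR-486 (0.26), without the filter on low counts (0.24) and with the least favourable TMM reference library (0.25).

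miR-181a-5p was highest at 13.5 months. At 12 months it ranged from 91.0 to 144 CPM with a median of 109.6 (114 ± 20.2, SD, n = 9). The 13.5-month libraries lay between 126 and 290.3 CPM with a median of 189.7 (193 ± 52.3, n = 12). All but 3 of these 12 libraries were above every 12-month library. At 15 months the 5 libraries held 75.4, 83.5, 90.0, 90.7 and 106 CPM (89.2 ± 11.5, n = 5), and all of them lay below every 13.5-month library. Such a lack of overlap between these ages, in the same direction, was seen for 0.929% of the microRNAs tested. At 16.5 months the level ranged from 93.2 to 128 CPM with a median of 108 (112 ± 11.9, n = 11), and 9 of 11 libraries were below all those of 13.5 months. In the order of the means, 13.5 months stood apart, while 12, 16.5 and 15 months were not told apart by the contrasts among them.

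In the edgeR contrasts miR-181a-5p rose from 12 to 13.5 months by 0.77 on the log2 scale (SE 0.14, adjusted p = 1.1e-04), a 1.70-fold change. It fell by 1.11 from 13.5 to 15 months (SE 0.18, adjusted p = 3.2e-05), and 16.5 months was lower than 13.5 months by a log2 difference of -0.78 (SE 0.13, adjusted p = 1.7e-05). These contrasts share the 13.5-month libraries and are not independent of each other. For the signature as a whole, the study reports a combined expression value that rose over the interval in which miR-181a-5p fell here, and then levelled off. That value joins miR-181a-5p with other microRNAs after a different adjustment. It was not computed here, and the cause of the opposite directions was not tested. Scaling by the total count alone, which miR-486 dominates, ended the call between 12 and 13.5 months (log2 difference 0.50, adjusted p = 0.16). That scaling also moved the median of all tested microRNAs by -0.31, and relative to the median the miR-181a-5p difference was 0.82, against 0.81 with TMM scaling.

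miR-181b-5p, whose precursors lie in the same clusters, followed a similar course at a lower level. Its 12-month libraries ranged from 12.1 to 26.2 CPM with a median of 18.6 (18.5 ± 4.45, n = 9), and those at 13.5 months from 17.1 to 49.6 CPM with a median of 27.8 (29.7 ± 9.27, n = 12). The 15-month libraries held 12.2, 13.8, 14.4, 14.9 and 18.6 CPM (14.8 ± 2.33, n = 5), and those at 16.5 months ranged from 18.3 to 25.5 CPM with a median of 20.9 (20.9 ± 2.36, n = 11). As for miR-181a-5p, 9 of the 12 libraries at 13.5 months exceeded every 12-month library, but the groups of 15 and 13.5 months overlapped, with 4 of 5 libraries below all 12. By edgeR, miR-181b-5p rose by 0.67 on the log2 scale from 12 to 13.5 months (SE 0.16, adjusted p = 0.0028), fell by 0.99 to 15 months (SE 0.20, adjusted p = 6.4e-04) and differed by -0.49 between 16.5 and 13.5 months (SE 0.15, adjusted p = 0.013). Scaling by reads outside miR-486 ended the first call (log2 difference 0.41, adjusted p = 0.065) and the last (-0.34, adjusted p = 0.093). Total count scaling (adjusted p = 0.32 and 0.11) and testing without the filter on low counts (0.057 and 0.17) did the same. The last call also depended on the library used as TMM reference (highest adjusted p = 0.14). Relative to the median of all tested microRNAs, the first difference was 0.63 to 0.73 over the scalings and the last -0.49 to -0.41. These relative values were not tested.

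miR-181d-5p had the lowest level of the 5p members. It ranged from 9.02 to 15.9 CPM with a median of 11.9 at 12 months (12.0 ± 2.21, n = 9) and from 10.1 to 20.2 CPM with a median of 16.0 at 13.5 months (15.2 ± 3.54, n = 12). The 15-month values were 4.85, 8.97, 9.18, 9.71 and 11.4 CPM (8.82 ± 2.42, n = 5), and 16.5 months ranged from 8.80 to 18.4 CPM with a median of 11.2 (12.7 ± 3.65, n = 11). The fall from 13.5 to 15 months passed the edgeR test (log2 difference -0.77, SE 0.21, adjusted p = 0.012), with 4 of 5 libraries below all 12 of the earlier age. Without 15 months replicate 1, the shallow library with 4.85 CPM, the log2 difference was -0.63 and the adjusted p 0.063. The call was also lost with total count scaling (adjusted p = 0.061) and scaling by reads outside miR-486 (0.11). It was lost too with no filter on low counts (0.17) and the least favourable TMM reference library (0.13). Relative to the median of all tested microRNAs, the difference was -0.79 to -0.75 over the scalings, which was not tested. The log2 differences of 0.34 between 13.5 and 12 months (SE 0.17, adjusted p = 0.15) and of -0.27 between 16.5 and 13.5 months (SE 0.16, adjusted p = 0.24) did not pass. The first did with 1 or 2 RUVs factors (adjusted p = 0.015 and 0.012) and the most favourable TMM reference library (0.041), and the second without the 4 shallow libraries (-0.42, adjusted p = 0.042).

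miR-181c-5p, from the same chromosome 8 cluster as miR-181d-5p, passed in none of the contrasts, and its difference from miR-181d-5p was not tested. Its levels were the most spread of the 5p members, ranging from 26.2 to 104 CPM with a median of 42.0 at 12 months (47.1 ± 24.1, n = 9) and from 2.16 to 63.1 CPM with a median of 23.3 at 13.5 months (28.3 ± 18.9, n = 12). At 15 months the libraries held 18.001, 23.9, 37.7, 43.3 and 46.8 CPM (33.9 ± 12.5, n = 5), and at 16.5 months 17.6 to 45.2 CPM with a median of 26.5 (28.7 ± 9.75, n = 11). The 13.5-month libraries were uneven, since replicates 10, 11 and 12 held 63.1, 44.9 and 60.5 CPM while the other 9 lay at 29.8 CPM or lower. The lowest value, 2.16 CPM, rests on 3 reads in the shallow replicate 1. By edgeR the log2 difference was -0.72 between 13.5 and 12 months (SE 0.31, adjusted p = 0.079), 0.26 between 15 and 13.5 months (SE 0.37, adjusted p = 0.76), 0.02 between 16.5 and 13.5 months (SE 0.29, adjusted p = 0.98) and -0.71 between 16.5 and 12 months (SE 0.32, adjusted p = 0.13). The first of these depended on the processing and on single libraries. It passed with 1 or 2 RUVs factors (adjusted p = 0.034 and 0.0043), the filter over 100 reads (0.018), limma on the authors' normalized values (0.048) and the most favourable TMM reference library (0.039). Without 12 months replicate 7, the difference was -0.46 (adjusted p = 0.38) and that between 16.5 and 12 months -0.43 (adjusted p = 0.48). The first was -0.90 (adjusted p = 0.042) without replicate 10 and -0.91 (adjusted p = 0.028) without replicate 12 of 13.5 months.

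Of the 3p members, miR-181a-1-3p differed in its course from its guide strand. It ranged from 0 to 1.69 CPM with a median of 1.08 at 12 months (0.993 ± 0.517, n = 9), from 0 to 1.36 CPM with a median of 0.570 at 13.5 months (0.635 ± 0.368, n = 12) and from 0.354 to 2.38 CPM with a median of 1.36 at 16.5 months (1.33 ± 0.640, n = 11). The 15-month libraries held 0, 1.08, 1.09, 1.13 and 1.26 CPM (0.911 ± 0.514, n = 5). It was at 0 reads in 3 libraries, all of them shallow. From 13.5 to 16.5 months miR-181a-1-3p rose by 1.03 on the log2 scale (SE 0.33, adjusted p = 0.018 by edgeR), with 6 of 11 libraries above all 12 of 13.5 months. Over the same interval its 5p partner was lower. The call did not pass with total count scaling (adjusted p = 0.079) or with limma on the authors' normalized values (adjusted p = 0.087), and it did pass without the shallow libraries (0.99, adjusted p = 0.0071). The log2 differences were -0.61 between 13.5 and 12 months (SE 0.36, adjusted p = 0.23) and 0.57 between 15 and 13.5 months (SE 0.41, adjusted p = 0.44).

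For miR-181c-3p the range was 1.27 to 3.31 CPM with a median of 1.64 at 12 months (1.98 ± 0.732, n = 9), 0 to 2.98 CPM with a median of 1.15 at 13.5 months (1.29 ± 0.856, n = 12) and 1.06 to 3.13 CPM with a median of 1.54 at 16.5 months (1.76 ± 0.656, n = 11). The 15-month values were 0.944, 1.37, 1.73, 2.29 and 2.58 CPM (1.79 ± 0.667, n = 5). The ages overlapped, and no contrast of miR-181c-3p passed the edgeR test, with 0 at an unadjusted p under 0.05. Its log2 difference was -0.51 between 13.5 and 12 months (SE 0.29, adjusted p = 0.22), 0.37 between 15 and 13.5 months (SE 0.34, adjusted p = 0.61) and 0.40 between 16.5 and 13.5 months (SE 0.27, adjusted p = 0.31).

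**Figure D2:**
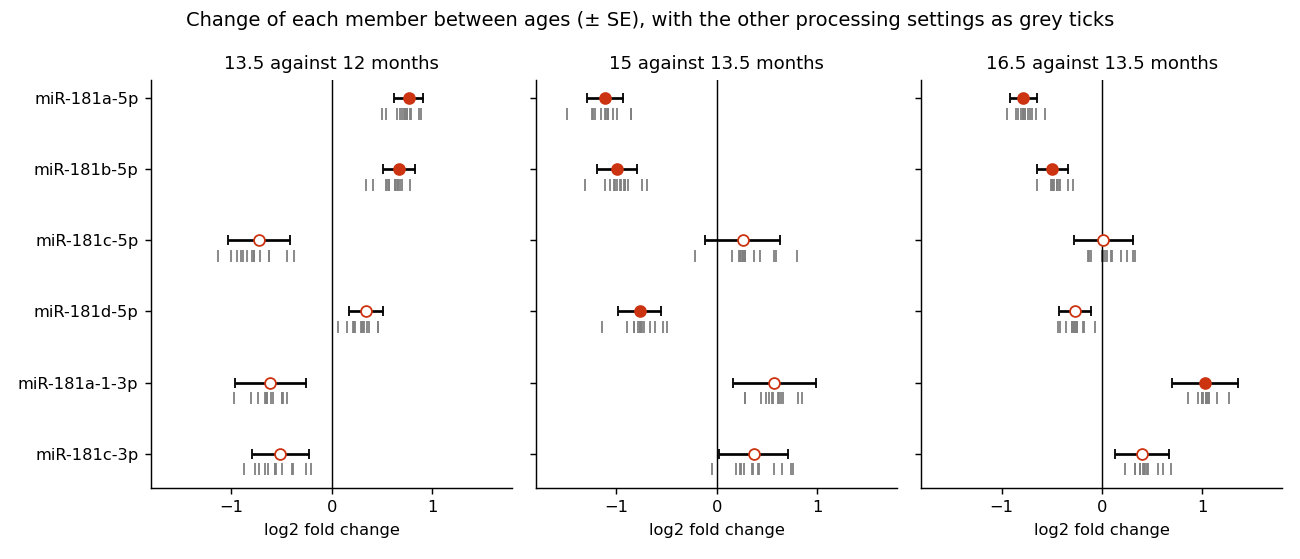
Log2 fold change of each member (points, ± SE) in 3 contrasts between ages, filled where the edgeR adjusted p was under 0.05 and open otherwise, with grey ticks for the values under the other scalings, filters, tools and sets of libraries. miR-181a-5p lies right of 0 for 13.5 against 12 months (0.77) and left of it in the other contrasts (-1.11 and -0.78) at every tick, whereas the ticks of miR-181c-5p fall on both sides of 0 in the last 2 panels.

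Counted over the family, 2 of 6 members rose from 12 to 13.5 months, beside 9.91% of all tested microRNAs that rose and 21.1% that changed in either direction. The median log2 difference of the members was -0.08, and that of all tested microRNAs -0.04, because the members that did not pass lay mostly below 0. From 13.5 to 15 months 3 of 6 members fell, beside 6.5% of all tested that fell and 10.2% that changed, with a median of -0.26 for the members and -0.02 for all. From 13.5 to 16.5 months 2 of 6 members fell, beside 14.6% of all tested, and 1 of 6 rose, beside 11.8%, where 26.3% of all tested changed, with medians of -0.13 and -0.03. In the contrasts that leave out 13.5 months, 0 of 6 members passed by edgeR, and 0 by DESeq2 or by limma on the authors' normalized values. For 16.5 against 15 months the lowest adjusted p of a member was 0.28, with 2 members at an unadjusted p under 0.05, beside 0.31% of all microRNAs called. For 15 against 12 months it was 0.41, with 0 such members, beside 0.31%. For 16.5 against 12 months it was 0.13, with 1 such member, beside 13.9%.

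Whether the members changed by different amounts was tested on ratios of reads within each library, which need no scaling between libraries. The log2 ratio of 2 members (0.5 reads added to each) was compared by permutation of the libraries, exactly where an age had fewer than 10 libraries, and p-values were adjusted over 25 tests of 5 ratios. The threshold was passed by 11 of 25. All ratios but that of miR-181c-3p to miR-181c-5p have miR-181a-5p as denominator, and the contrasts share libraries. The tests are therefore not independent of each other.

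Reads of miR-181c-5p for every 100 of miR-181a-5p had a median of 30.4, 11.9, 45.2 and 22.3 in the libraries aged 12, 13.5, 15 and 16.5 months. The mean log2 ratio was -1.38 ± 0.819 (SD, n = 9), -3.09 ± 1.23 (n = 12), -1.47 ± 0.721 (n = 5) and -2.03 ± 0.466 (n = 11), in that order of ages. It differed over the 4 ages (permutation test, adjusted p = 0.0032) and fell by 1.71 from 12 to 13.5 months (exact permutation test, adjusted p = 0.0068). The ratio was higher by 1.06 at 16.5 than at 13.5 months (permutation test, adjusted p = 0.024). Without the 4 shallow libraries these differences were -1.48 (adjusted p = 0.0073) and 0.83 (adjusted p = 0.029) by the same permutation tests. Between 13.5 and 15 months it rose by 1.62 (exact permutation test, adjusted p = 0.036), a call lost on leaving out any of 11 libraries, which were replicates 2 and 4 to 9 of 13.5 months and 2 to 5 of 15 months, with values from 1.42 to 1.79 and adjusted p up to 0.089. Thus miR-181c-5p and miR-181a-5p, which differ by a single base, changed unequally between 12 and 13.5 months.

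miR-181b-5p passed no test against miR-181a-5p when all libraries were included. Its median was 15.4 reads per 100 of miR-181a-5p at 12 and also at 13.5 months, 16.4 at 15 months and 18.6 at 16.5 months, and 0 of 5 tests of this ratio passed, with 0 at an unadjusted p under 0.05. The difference was -0.08 between 13.5 and 12 months (exact permutation test, adjusted p = 0.66) and 0.29 between 16.5 and 13.5 months (permutation test, adjusted p = 0.089). The latter passed without the shallow libraries (0.35, adjusted p = 0.021). Leaving out 13.5 months replicate 1 alone had the same effect (0.37, adjusted p = 0.018) and brought the 4-age test to an adjusted p of 0.031. That library held the highest ratio of miR-181b-5p to miR-181a-5p. Between 16.5 and 12 months the difference was 0.21 (exact permutation test, adjusted p = 0.089). It passed without replicate 6 or 9 of 12 months or replicate 4 of 16.5 months (0.24 to 0.26, adjusted p 0.033 to 0.045).

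The ratio of miR-181d-5p to miR-181a-5p was lower by 0.41 at 13.5 than at 12 months (exact permutation test, adjusted p = 0.0496), and higher by 0.47 at 16.5 than at 13.5 months (permutation test, adjusted p = 0.023). The first of these lies at the threshold, and it was lost on leaving out any of 21 libraries, with values from -0.43 to -0.32 and adjusted p up to 0.10. These were replicates 1, 4, 5, 7, 8 and 9 of 12 months, 1 to 11 of 13.5 months and 2 to 5 of 15 months. Over the 4 ages the adjusted p of this ratio was 0.082 (permutation test), and 0.041 without the shallow libraries, and it was under the threshold too on leaving out replicate 3 of 12 months, 12 of 13.5 months, 1 of 15 months or 4 of 16.5 months (0.017 to 0.042). Between 15 and 13.5 months the difference was 0.28 (exact permutation test, adjusted p = 0.28), but 0.44 (adjusted p = 0.041) without the shallow libraries and 0.48 (adjusted p = 0.038) without 15 months replicate 1 alone. The medians were 10.5, 7.53, 11.6 and 10.1 reads per 100 of miR-181a-5p at 12, 13.5, 15 and 16.5 months.

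The 3p arm of the chromosome 1 hairpin changed against its 5p arm. For every 100 reads of miR-181a-5p the median was 0.962, 0.334, 1.196 and 1.193 reads of miR-181a-1-3p in the libraries aged 12, 13.5, 15 and 16.5 months. Over the 4 ages the log2 ratio differed (permutation test, adjusted p = 0.0068). It was lower by 1.21 at 13.5 than at 12 months (exact permutation test, adjusted p = 0.024), where 7 of 9 libraries at 12 months lay above all 12 at 13.5 months. At 16.5 months it was higher by 1.66 than at 13.5 months (permutation test, adjusted p = 0.0012) and at 15 months by 1.37 (exact permutation test, adjusted p = 0.026). Leaving out any of replicates 2 to 5 of 15 months ended the last call (1.18 to 1.25, adjusted p 0.052 to 0.074). With the 4 shallow libraries left out, 3 of which had no read of the 3p arm, the differences were -1.48, 1.72 and 1.86 with adjusted p of 3.3e-04, 5.8e-04 and 0.0031 by the same permutation tests. Because miR-181a-5p reads come from 2 loci and miR-181a-1-3p from one, a shift between the arms and a shift between the loci cannot be told apart.

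In the chromosome 8 hairpin, the ratio of miR-181c-3p to miR-181c-5p differed in 1 of 5 tests, being higher by 0.49 at 16.5 than at 12 months (exact permutation test, adjusted p = 0.012). Its medians were 4.50, 5.38, 4.91 and 5.87 reads of the 3p arm per 100 of the 5p arm at 12, 13.5, 15 and 16.5 months. This 3p arm was thus several times more abundant, relative to its 5p arm, than miR-181a-1-3p was.

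**Figure D3:**
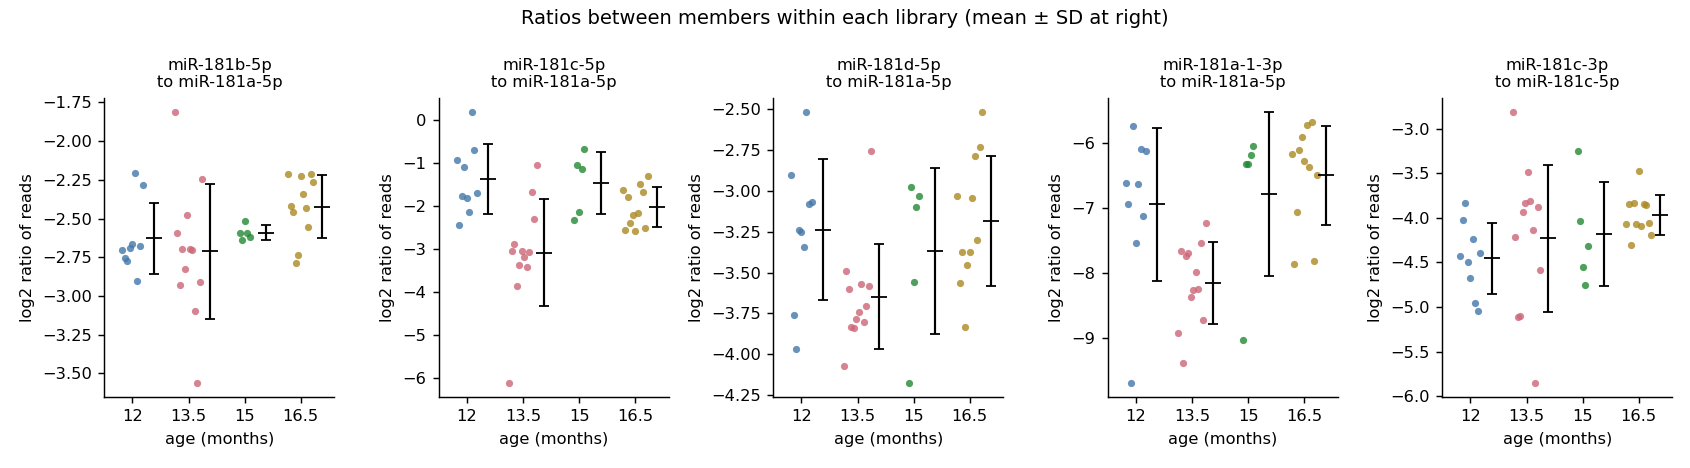
Log2 ratio of reads between 2 members (vertical axes, 0.5 reads added to each) in every library at each age in months, with the mean ± SD to the right of the points. The ratios of miR-181c-5p and of miR-181a-1-3p to miR-181a-5p are lowest at 13.5 months (means -3.09 and -8.15), and the single points far below their groups include the shallow libraries.

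The same shift is seen in the make-up of the family's reads. miR-181a-5p took a median of 60.4%, 73.9%, 56.7% and 63.7% of them at 12, 13.5, 15 and 16.5 months. miR-181c-5p took 19.2%, 8.72%, 25.6% and 14.6% at the same ages. In 12 months replicate 7, miR-181c-5p held 45.6% of the family reads and exceeded miR-181a-5p, at 40.02%. In no other library was that so. The libraries of 13.5 months were alike for replicates 2 to 9, and replicates 10 to 12 had larger miR-181c-5p shares.

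**Figure D4:**
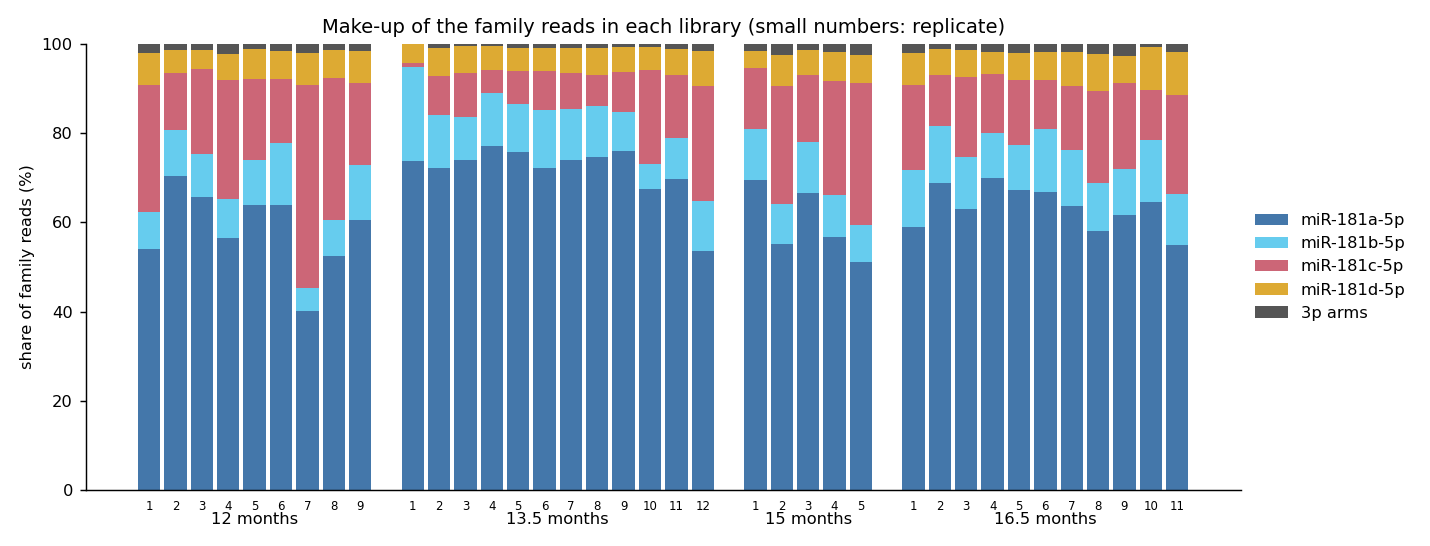
Share of the family's reads (vertical axis, percent) held by each 5p member and by all 3p arms together in each of the 37 libraries, which are grouped by age and numbered by replicate. miR-181a-5p holds the largest share in all but replicate 7 of 12 months, and the miR-181c-5p share is smallest in replicate 1 of 13.5 months (0.912%).

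Blood holds several cell types that carry microRNAs, and fewer cells of a type and less RNA per cell cannot be told apart in such bulk samples. Markers of blood cells were therefore set beside the members. All 14 markers were detected, each in at least 32 libraries. The lymphoid list (miR-150-5p, miR-155-5p, miR-342-3p and miR-342-5p) summed to 34.3 to 741, 81.3 to 528, 117 to 516 and 138 to 518 CPM at 12, 13.5, 15 and 16.5 months. The myeloid list (both arms of miR-223) summed to 14.2 to 54.3, 5.03 to 28.1, 10.04 to 27.5 and 14.0 to 26.2 CPM at these ages. The erythroid list (miR-451a, both arms of miR-144, both arms of miR-486a and miR-16-5p) summed to 235362 to 737919, 293527 to 1478206, 482328 to 857242 and 353664 to 864054 CPM, a value above 1000000 being possible in a library with a small TMM factor. The platelet and endothelial list (both arms of miR-126a) summed to 0.645 to 4.93, 0 to 3.15, 0.346 to 2.52 and 0.680 to 1.62 CPM.

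From 12 to 13.5 months, when miR-181a-5p and miR-181b-5p rose, 3 of 6 erythroid markers and 1 of 2 myeloid markers fell, beside 11.1% of all tested microRNAs that fell, while 0 of 4 lymphoid and 0 of 2 platelet and endothelial markers passed the edgeR test. miR-451a, a red cell microRNA, fell by 1.28 on the log2 scale (adjusted p = 0.017), miR-144-5p of the same cluster by 1.51 (adjusted p = 1.9e-04) and the granulocyte microRNA miR-223-3p by 0.89 (adjusted p = 0.0090). The other erythroid markers did not pass, and miR-486a-5p had a log2 difference of 0.41 (adjusted p = 0.23), miR-486a-3p of 1.17 (adjusted p = 0.31) and miR-16-5p of -0.17 (adjusted p = 0.54). From 13.5 to 15 months, when 3.72% of all tested rose, miR-144-5p rose by 1.67 (adjusted p = 6.4e-04) as the only marker that passed, and it was higher at 16.5 than at 13.5 months by 1.61 (adjusted p = 2.4e-05), where miR-342-3p was higher too (0.81, adjusted p = 0.0084). The directions of the markers that passed held under each of the 4 scalings, but not every call did. With total count scaling, edgeR gave miR-144-5p an adjusted p of 0.11 between 15 and 13.5 months. It gave miR-342-3p 0.084 between 16.5 and 13.5 months. Among the lymphoid markers, the edgeR adjusted p over the 4 ages was 0.97 for miR-150-5p, 0.53 for miR-155-5p, 0.34 for miR-342-5p and 0.012 for miR-342-3p. The last was also higher at 16.5 than at 12 months (0.88, adjusted p = 0.021 by edgeR, and 0.26 with total count scaling), where 13.9% of all tested changed. The part of these cell types in the changes of the members was not tested.

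Set against the marker lists within each library, miR-181a-5p passed 11 of 20 permutation tests (adjusted over the 20). Against the myeloid list it was higher at 13.5 than at 12 months by 1.69 on the log2 scale (exact permutation test, adjusted p = 9.5e-04) and lower at 15 and 16.5 than at 13.5 months by -1.48 (exact permutation test, adjusted p = 0.0096) and -1.43 (permutation test, adjusted p = 2.7e-04). At each age miR-486a-5p made up 96.8% to 98.6% of the mean level of the erythroid list, so the ratio to this list is in effect one to miR-486a-5p. Against it the corresponding differences were 0.43 (exact permutation test, adjusted p = 0.11), -1.43 (exact permutation test, adjusted p = 0.0032) and -0.78 (permutation test, adjusted p = 0.0096). The first of them passed without 13.5 months replicate 1 (0.58, adjusted p = 0.0060), a shallow library, and without all 4 of these (0.56, adjusted p = 0.010). Against the lymphoid list they were 0.36 (exact permutation test, adjusted p = 0.47), -0.97 (exact permutation test, adjusted p = 0.071) and -1.03 (permutation test, adjusted p = 0.0096). Over the 4 ages the lymphoid ratio had an adjusted p of 0.071 (permutation test), which was 0.019 without the shallow libraries and 0.033 to 0.049 on leaving out replicate 3 or 6 of 12 months or replicate 1 or 2 of 13.5 months. The -0.97 passed without replicate 1 (-1.10, adjusted p = 0.037) or replicate 2 (-1.07, adjusted p = 0.049) of 13.5 months. Thus the rise from 12 to 13.5 months was past the threshold against the myeloid and the platelet and endothelial lists. For the latter it was 1.82 (exact permutation test, adjusted p = 0.015). It was not past the threshold against the others, and whether the lists differ in this was not tested. The myeloid ratio also holds the change of miR-223-3p itself (log2 difference -0.89). The platelet and endothelial list fell as low as 0 CPM at 13.5 months, where the ratio rests on the reads added. Against the platelet and endothelial list, the difference of -1.14 between 16.5 and 13.5 months lay at the threshold (permutation test, adjusted p = 0.049). It did not pass without the shallow libraries (adjusted p = 0.064), with 1 read added (0.050) or on leaving out any of 19 libraries, which were replicates 1, 3 to 7, 9 and 11 of 13.5 months and each of 16.5 months (-1.19 to -0.89, adjusted p up to 0.086).

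**Figure D5:**
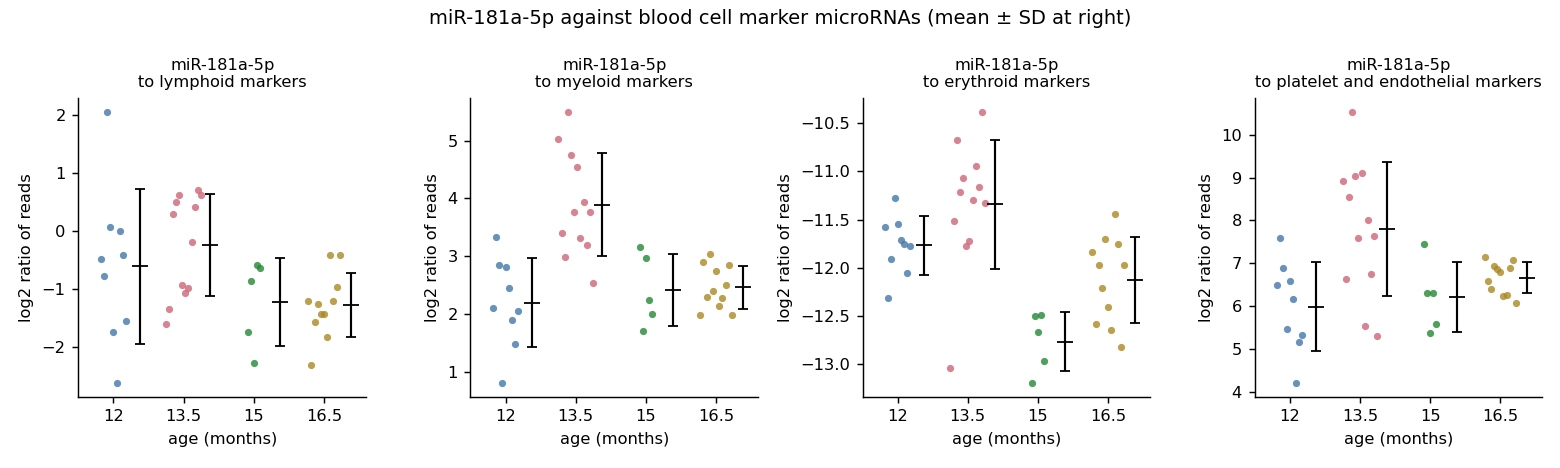
Log2 ratio of miR-181a-5p reads to the summed reads of 4 blood cell marker lists (vertical axes) in every library at each age in months, with the mean ± SD to the right of the points. The ratio to the myeloid list is highest at 13.5 months (mean 3.89), and the ratio to the lymphoid list overlaps widely between 12 and 13.5 months.

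Among libraries of one age, miR-181b-5p varied with miR-181a-5p and the other members did not pass the test. With log2(CPM + 1) centred within each age, Pearson's r with miR-181a-5p over 37 libraries was 0.53 for miR-181b-5p (permutation within ages, p = 0.0071, adjusted p = 0.036 over 5 pairs) and Spearman's rho 0.57 (p = 0.0011, adjusted p = 0.0055, by the same permutation). Without the 2 libraries farthest from the median, r was 0.49. Within single ages it was 0.75 at 12 months, 0.46 at 13.5 months and 0.17 at 16.5 months, and 15 months had too few libraries. The r was 0.24 for miR-181d-5p, 0.07 for miR-181a-1-3p, -0.01 for miR-181c-5p and 0.00 for miR-181c-3p. At 12, 13.5 and 16.5 months the r was -0.47, 0.63 and 0.15 for miR-181d-5p, -0.67, 0.17 and 0.27 for miR-181c-5p, -0.51, 0.37 and 0.27 for miR-181a-1-3p, and -0.18, 0.03 and 0.42 for miR-181c-3p, so each pooled value joins ages of opposite sign. In Spearman's rho the pooled values were 0.21, 0.15, 0.01 and 0.01, with permutation p of 0.22, 0.38, 0.94 and 0.97. Libraries share depth and scaling factor across microRNAs, which enters such correlations.

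Ranked by this Pearson r among the 322 other microRNAs tested, miR-181b-5p stood at 1. The non-members most like miR-181a-5p were let-7i-5p (r = 0.50), miR-378a-3p (0.49), miR-378c (0.47), miR-128-1-5p (0.46) and miR-107-3p (0.45), given here as a description. Their Spearman's rho was 0.42, 0.34, 0.15, 0.42 and 0.37 in the same order, and miR-128-1-5p had a mean of only 0.83 CPM. The other members ranked at 52 (miR-181d-5p), 111 (miR-181a-1-3p), 139 (miR-181c-3p) and 143 (miR-181c-5p). The mean level of let-7i-5p was 228, 432, 171 and 191 CPM at 12, 13.5, 15 and 16.5 months.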

How the data were processed

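Small RNA of whole blood was sequenced as single libraries. Per the study's methods, reads shorter than 18 bases were discarded, and miRDeep2 counted reads on known precursors. The submitters' processing notes name FastQC 0.11.5 and the mm10 build. The deposited table holds raw counts per mature microRNA and precursor (2241 rows, 1915 names), made by the authors and not normalized. A further deposited table holds a normalized signal for 337 microRNAs, scaled by the authors, which served only as an alternative.

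The first row of each name was used. The copies of miR-181a-5p differed in 1 library by 1 read, and those of miR-181b-5p in 32 libraries by at most 5 reads. Counts were fitted over all 37 libraries in edgeR 4.0.16 (R 4.3.3; TMM, robust quasi-likelihood), with Benjamini-Hochberg adjustment over the 323 tested microRNAs within each contrast. The SE is the log2 difference divided by the root of F. DESeq2 1.42.0, RUVs factors and limma 3.58.1 were alternatives, as was leaving out the 4 shallow libraries, which was chosen after seeing the data. Ratio and correlation tests used 100000 resamples where not exact (SciPy 1.17.1), and were two-sided. The scripts were tested on simulated data. Of 167 pairs of libraries of the same age, 0 differed by as little as sampling noise. Mature sequences are those of RefSeq, and gene annotation is that of GENCODE for the same build.

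The text names the members, the other 3p arms of their precursors, the 5 tested microRNAs most like miR-181a-5p, and the blood cell markers. Members and lists were chosen with earlier results of these data known. The labels do not say whether libraries of an age came from separate mice, and at 13.5 and 16.5 months they are more than the animals a group that the study states, so p-values measure the spread between these libraries. Reads carry no molecular identifiers, so they are not independent molecules.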

Additional observations from a re-analysis of the deposited data

Results flagged for a closer look

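A test for a library far from the others of its age (Dixon's 95% limit, groups of 4 to 10 libraries) was applied to 30 groups and marked 4 values, where about 1 in 20 groups, or 1.5, are marked by chance. miR-181c-5p in 12 months replicate 7 stood at 103.6 CPM against a median of 42.0 of the 9 libraries. miR-181a-1-3p in 15 months replicate 1 stood at 0 CPM against a median of 1.09 of the 5 libraries. The log2 ratio of miR-181a-1-3p to miR-181a-5p was -9.70 in 12 months replicate 3, where the median was -6.63, and -9.04 in 15 months replicate 1, where the median was -6.32. Both libraries with a low ratio are among the 4 shallow ones and had no read of the 3p arm, so their ratios are set by the 0.5 reads added.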

How the results depend on the processing

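Counts of members called moved by over 1.5 times in few settings. With 2 RUVs factors 5 instead of 3 members passed over the 4 ages. For 13.5 against 12 months, 4 members passed with 1 and also with 2 RUVs factors, 0 with total count scaling, 1 with the total outside miR-486 and 1 without the filter, instead of 2. For 16.5 against 13.5 months 1 instead of 3 passed with total count scaling. Without centring on age, 2 instead of 1 members correlated with miR-181a-5p. No such count moved this far on leaving out any single library. No pairing by replicate number was seen (mean correlation -0.04 over 44 same-numbered pairs, and 1 of 37 libraries correlated best with its own number). Single pairs ran from -0.67 to 0.63, so the check cannot exclude that same-numbered libraries share a mouse.

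Directions turned only for differences that passed no test. For miR-181c-5p the log2 difference between 15 and 13.5 months was -0.22 with total count scaling, and that between 16.5 and 13.5 months was -0.13 with that scaling, -0.14 with the lowest TMM reference and -0.11 without the shallow libraries (-0.082 to 0.21 on leaving out each library). For miR-181c-3p it was -0.043 between 15 and 13.5 months with total count scaling. With the replicate block, the ratio of miR-181b-5p to miR-181a-5p was -0.021 between 15 and 13.5 months, and that of miR-181d-5p to miR-181a-5p -0.070 between 16.5 and 12 months, which was -0.082 without the shallow libraries and -0.037 to 0.14 on leaving out each library. The ratio of miR-181c-3p to miR-181c-5p between 15 and 13.5 months was -0.042 with 1 read added, -0.055 without the shallow libraries and -0.18 to 0.19 on leaving out each library. The cause was not tested. For the ratios, the replicate block was an exact sign permutation of differences between same-numbered libraries. With 5 libraries at 15 months, it could not pass for 15 against 13.5 months, whatever the values. Its adjusted p there was 0.12 for miR-181c-5p to miR-181a-5p (difference 2.39) and 0.22 for miR-181a-1-3p to miR-181a-5p (1.51). These 2 values therefore do not bear on the calls. The block brought the ratio of miR-181d-5p to miR-181a-5p between 13.5 and 12 months to an adjusted p of 0.069. By edgeR, it brought miR-181d-5p over the 4 ages to 0.17 and its fall between 13.5 and 15 months to 0.078. With it miR-181c-5p passed over the 4 ages (0.029) and between 13.5 and 12 months (0.0088), and so did its ratio to miR-181a-5p between 16.5 and 12 months (0.031).

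Few reads limit the 3p arms, which had 1 read or none in some libraries, and 5 libraries limit the 15-month contrasts.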
